A study of Mus musculus with 3 samples.

Results

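The proteins of the cytosolic ribosome are encoded by a family of abundant genes, and 83 of them were followed here through the conversion of mouse embryonic fibroblasts toward motor neurons. The members were chosen by symbol: Rpl or Rps with a number and an optional suffix, the stalk genes Rplp0, Rplp1 and Rplp2, and Rpsa, leaving out the Rps6k kinases and pseudogene names ending in -ps. Of 31744 symbols in the deposited feature table, 83 met this rule, 51 of the large subunit and 32 of the small. In the kept cells of each library 82 of them had at least 1 UMI (a unique molecular identifier, which marks 1 captured RNA molecule), and Rpl10l had none.

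A ribosome joins a small subunit, which reads the mRNA, to a large subunit, which forms peptide bonds, and each protein is normally needed in a fixed ratio to the others. Most of these mRNAs begin with a run of pyrimidines, the terminal oligopyrimidine (TOP) element, through which the growth-sensing kinase mTORC1 governs their translation and stability. Dividing cells must double their ribosomes in each cycle, whereas postmitotic neurons replace them only as they turn over, and several members have a paralog of more restricted expression.

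Single-cell RNA sequencing with 10x Genomics 3′ chemistry was done on 3 libraries, each the only one of its group. All cells had the genotype Hb9::GFP, in which a fluorescent protein reports activity of Mnx1 (Hb9), a motor neuron transcription factor gene, and all had received LNI, a cassette of the transcription factors Lhx3, Ngn2 and Isl1, with DDRR, which joins HRAS(G12V), a constitutively active Ras, to p53DD, a fragment that blocks p53. At 14 dpi (the labels' time unit) Hb9::GFP+ cells were sorted from a culture without supplements and from one with them, namely RepSox, which blocks TGF-beta receptor signaling, and the growth factors FGF, GDNF, CNTF and BDNF. At 4 dpi, with supplements, cells of low CellTrace-FarRed signal, a dye that is diluted by division, were sorted. The 14 dpi cells were dissociated with papain and DNase and the 4 dpi cells with trypsin, and all 3 libraries carry the same batch date. Against 4 dpi, time, sorting gate, dissociation and depth differ together and cannot be told apart. With 1 library per group no test between groups was possible: intervals below are 95% exact binomial intervals, they cover counting error only, and no p-value is given. Where values of the 3 libraries follow each other without labels, they stand in the order with supplements, without supplements and 4 dpi.

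The libraries kept 2314 cells with supplements, 3716 without supplements and 4492 at 4 dpi, with medians of 14380.5, 10664 and 2312.5 UMIs per cell. Between 3 and 5 cell barcodes were shared by each pair of libraries. Cells were placed in a neuron, fibroblast or dividing state by fixed numbers of marker UMIs (such as Tubb3 and Stmn2, Col1a1 and Dcn, Mki67 and Top2a), counted after thinning each cell to 1000 UMIs outside the members and the mitochondrial genes. A state is thus a range of marker counts, not a cell type. Outside the dividing state, many cells lay around the neuron and fibroblast cuts of 5. Cells with 2 to 4 neuron markers numbered 210, 630 and 754 with supplements, without and at 4 dpi. Those with 5 to 9 neuron markers numbered 430, 856 and 282. For fibroblast markers these numbers were 577, 830 and 483 with 2 to 4, and 262, 476 and 585 with 5 to 9. Next to the dividing cut of 3 lay 85, 112 and 602 cells. No neuron, fibroblast or dividing marker was at 0 in any library. Motor neuron markers had a summed level of 129 CPM (counts scaled to 1000000 UMIs per library or state) with supplements, 213 CPM without and 43.0 CPM at 4 dpi, where Chat was at 0. Markers of muscle, macrophages, endothelium, epithelium and glia summed to between 1.13 and 40.2 CPM per list. The 4 neural progenitor markers summed to 87.8 CPM with supplements, 14.3 CPM without and 62.9 CPM at 4 dpi, so they were lowest without supplements. The part of these cell types in the results was not tested.

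The 30 bases around the annotated transcription start, 15 to each side, are given for members on which later results turn. The longest unbroken pyrimidine run is in capitals (RefSeq, build GRCm38.p6, whereas the counts used GRCm39). Rps27 had the highest ratio between the 14 dpi libraries, Rpl39 was among the members that departed upward, Rps2 was the lowest standard member, Rpl13a was far lower at 14 dpi, and Rps27l, Rpl7l1 and Rpl39l are the paralogs that went against the family. The coordinates are chr3:90213634-90213663 (minus strand) for Rps27, chrX:37085208-37085237 (minus) for Rpl39, chr17:24720048-24720077 (plus) for Rps2, chr7:45128731-45128760 (minus) for Rpl13a, chr9:66946071-66946100 (plus) for Rps27l, chr17:46782642-46782671 (minus) for Rpl7l1 and chr16:10170213-10170242 (plus) for Rpl39l.
Rps27: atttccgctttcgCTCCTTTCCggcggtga
Rpl39: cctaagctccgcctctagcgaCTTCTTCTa
Rps2: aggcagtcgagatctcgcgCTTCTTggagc
Rpl13a: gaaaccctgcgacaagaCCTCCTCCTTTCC
Rps27l: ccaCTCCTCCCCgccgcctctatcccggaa
Rpl7l1: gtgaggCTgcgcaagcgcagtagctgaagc
Rpl39l: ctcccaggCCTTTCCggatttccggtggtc
For Rps27l the table holds 2 starts: the one printed, with a run of 9, and a second downstream at chr9:66946398-66946427, whose longest run is 4. Rps27 has a run of 9 pyrimidines that spans the start, and Rpl7l1 has none longer than 2 in this window. In Rps27l, Rpl7l1 and Rpl39l the printed run lies wholly upstream of the annotated start. In Rpl39, Rps2 and Rpl13a it begins 6, 4 and 2 bases after the start. A run away from the start is not by itself a TOP element. RefSeq starts were matched for 63 of the 83 members, with 75 starts. Within 20 bases to each side of a start (40 bases), a run of at least 8 pyrimidines was present in 47.6% of these 63 genes and in 18.4% of all 27025 genes of the table, with median longest runs of 7 and 5. The letters CTTTCC were searched on both strands. On the strand printed here, which reads like the mRNA, they stood in 11 of the 63 members (17.5%), against 2.30% of all genes. On the other strand they stood in 0 members against 2.03%. The 11 members with CTTTCC, which were Rpl4, Rpl13a, Rpl15, Rpl18, Rpl28, Rpl35, Rpl35a, Rpl38, Rpl39l, Rps10 and Rps27, had a median log2 ratio of 0.50 without over with supplements, against 0.42 in the 50 tested members without it. A match describes letters only.

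The family took a smaller share of UMIs in the library with supplements at 14 dpi than in either of the other two. The share was 13.8% with supplements (5088489 of 36782509 UMIs), 19.7% without (9020223 of 45855979) and 20.8% at 4 dpi (2539765 of 12202809). Per cell, the median was 12.8% with supplements, with quartiles of 9.78% and 17.3%. It was 19.8% without supplements, with quartiles of 14.8% and 24.9%, and 20.8% at 4 dpi, with quartiles of 18.0% and 23.5%, so the ranges of single cells overlapped. The median cell held 1807.5 ribosomal protein UMIs with supplements and 2075 without, while its other UMIs numbered 12401 and 8511.5, so that both terms of the share differed. The large subunit took 56.8%, 56.5% and 54.6% of the family's UMIs in the 3 libraries. Mitochondrially encoded genes moved with the library too, at 6.07%, 4.86% and 3.70% of UMIs, and their part in the difference was not tested.

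Within each library the share was lowest in the neuron state, intermediate in the dividing state and highest in the fibroblast state. With supplements the shares were 12.2% in 1532 neuron-state cells, 17.4% in 178 dividing cells and 19.8% in 228 fibroblast-state cells. Without supplements they were 15.7% (1777 cells), 22.4% (299 cells) and 26.3% (976 cells). At 4 dpi they were 17.1% (185 cells), 20.4% (1301 cells) and 21.8% (1632 cells). The order was the same in all 3 libraries, and each state had a higher share without than with supplements at 14 dpi. With the states of the no-supplements library weighted as in the library with supplements, its mean share per cell went from 20.2% to 18.2%, against 14.0% with supplements.

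**Figure D1:**
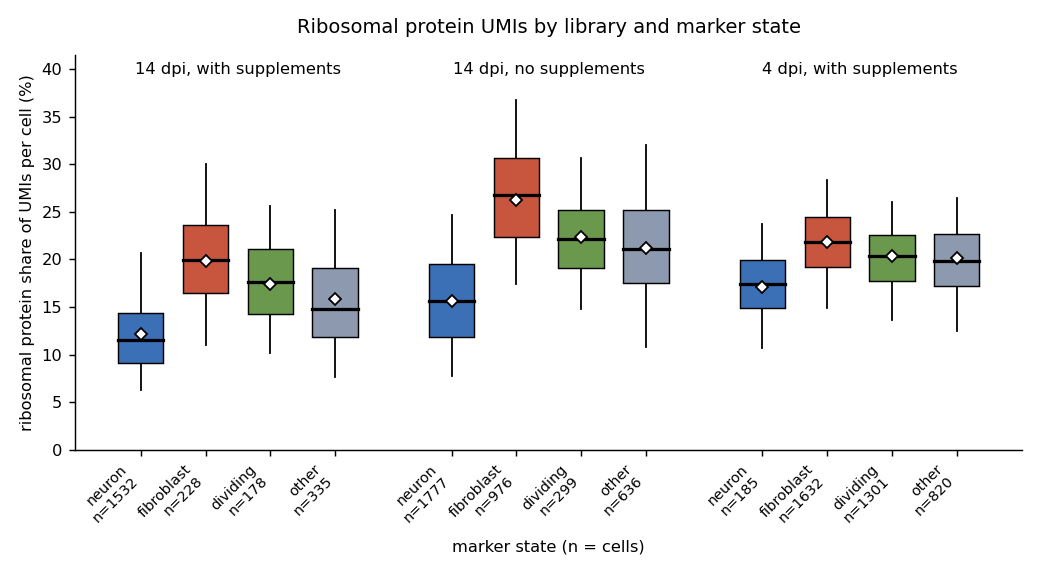
Share of UMIs in the 83 ribosomal protein genes per cell (y axis, percent) for each marker state of each library (x axis, with the number of cells). Boxes span the quartiles with a line at the median, whiskers reach the 5th and 95th percentiles, and diamonds mark the share of summed UMIs, which is lowest in the neuron state of each library (12.2%, 15.7% and 17.1%).

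The states differed in absolute counts as well. In the library with supplements the median cell held 1676 ribosomal protein UMIs in the neuron state, 2205.5 in the fibroblast state and 2945.5 in the dividing state, beside 13075.5, 9475 and 13535.5 other UMIs. Neuron-state cells therefore had fewer ribosomal protein UMIs and more of the rest than fibroblast-state cells, while dividing cells had the most of both. The same counts without supplements were 1743, 2417.5 and 3026, and at 4 dpi 362, 488.5 and 601, in the same order of states. The median share per cell differed with depth in some states and little in others. Among neuron-state cells with supplements split by depth into 3 equal groups, this median was 11.5% in the shallowest and 11.6% in the deepest. Among fibroblast-state cells it was 28.1% and 25.7% without supplements, and 20.9% and 19.2% with them. Among dividing cells at 4 dpi it was 19.3% in the shallowest and 21.1% in the deepest.

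The share changed gradually over bins of marker counts. Outside the dividing state of the library without supplements it was 26.6% in cells with at most 1 neuron marker UMI, 23.4% with 2 to 4, 19.2% with 5 to 9, 15.7% with 10 to 19 and 12.7% with 20 or more. Over the same bins the library with supplements went from 19.5% to 11.6% and the 4 dpi library from 21.5% to 17.5%. With fibroblast markers the direction was opposite: from at most 1 to at least 20 marker UMIs the share went from 11.6% to 21.3% with supplements, from 15.3% to 27.4% without, and from 18.5% to 22.8% at 4 dpi. Smaller sets of cells lay next to the cuts themselves. They numbered 60, 160 and 50 in the 3 libraries for the neuron cut, and 17, 50 and 174 for the fibroblast cut. Just inside and outside the neuron cut, at 5 and 4 markers, the shares were 13.1% and 14.3% with supplements, 18.1% and 19.7% without, and 16.9% and 18.9% at 4 dpi. Just inside and outside the fibroblast cut they were 16.6% and 14.4% with supplements, 24.7% and 24.0% without, and 20.6% and 21.3% at 4 dpi. Being fewer cells than those in the bins, these sets are unlike the bins, and their shares were not compared with those over the bins. Dividing cells also differed by the markers they carried. Those with neuron markers had 16.2%, 19.0% and 18.0% in the 3 libraries (74, 32 and 71 cells), and those with fibroblast markers 20.3%, 23.4% and 20.6% (44, 173 and 686 cells).

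The reporter and the mitochondrial share moved with the states. EGFP was at 2720 CPM in the neuron state and 874 CPM in the fibroblast state with supplements, 2669 and 529 CPM without, and 2450 and 9.36 CPM at 4 dpi. Mitochondrially encoded genes took 6.58% and 4.80% of UMIs in those states with supplements, 5.63% and 3.85% without, and 3.96% and 3.86% at 4 dpi. Their part in the difference between states was not tested.

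Without supplements nearly the whole family was higher than with them, by a similar factor. Of the 81 members that reached 10 CPM in 1 or both libraries, 78 were higher with an interval above 0, where 38.4% of all 9374 features tested were, and 3 were lower with an interval below 0, where 43.6% of features were. The median log2 ratio was 0.44 over members, with quartiles of 0.34 and 0.64, and -0.031 over all features. Of the members, 2 were at least 2-fold higher (5.18% of features) and 1 was at least 2-fold lower (4.79%). The large and small subunits had medians of 0.46 and 0.43. The median over members was 0.32 in the neuron state, 0.39 in the fibroblast state and 0.32 in the dividing state, where 75, 77 and 73 members had an interval above 0 (41.6%, 22.8% and 23.0% of features).

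Rps27, a small-subunit protein with a zinc finger, departed most from the family upward. Its level was 851 CPM with supplements, 1907 CPM without and 1115 CPM at 4 dpi, so the no-supplements library was the highest. The log2 ratio of the 14 dpi libraries was 1.16 (interval 1.15 to 1.18), and it was 0.94, 1.07 and 0.97 in the neuron, fibroblast and dividing states. Rps27 was the only member that exceeded the family's median by at least 0.5 in all 3 states. Rps27rt, a retrotransposed copy of Rps27 counted as its own gene, was at 46.0, 97.7 and 49.4 CPM in the same order of libraries, and reads that could belong to either copy make both values uncertain.

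Rpl22, a large-subunit protein that also binds RNA outside the ribosome, was at 720 CPM with supplements, 1509 CPM without and 1467 CPM at 4 dpi. The library with supplements was thus the low one, with a log2 ratio of 1.07 (1.05 to 1.09) between the 14 dpi libraries. Rps28 and Rps29 of the small subunit and Rpl36 and Rpl39 of the large one also exceeded the median by at least 0.5, with log2 ratios of 1.00, 0.95, 0.98 and 0.97. Rpl39, which lines the peptide exit tunnel, was at 1946 CPM with supplements, 3801 CPM without and 2285 CPM at 4 dpi. The highest level of Rpl39 was in the fibroblast state without supplements, at 5607 CPM. Centred on the members' summed UMIs in place of their median, 2 members and not 6 departed upward.

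Several of these genes have short transcripts. The 11 tested members whose GENCODE transcripts are shorter than 500 nucleotides, among them Rps27 (345 nucleotides), Rpl36, Rpl38, Rps28, Rps29 and Rps21, had a median log2 ratio of 0.74 without over with supplements. Members of 500 up to 700, 700 up to 1000 and at least 1000 nucleotides had medians of 0.44, 0.42 and 0.44. The 42 other genes shorter than 500 nucleotides had a median of -0.051. The short members were also higher than the rest within states, at 0.57 in the neuron, 0.67 in the fibroblast and 0.58 in the dividing state. The paralog Rps27l (499 nucleotides) is in the short bin and did not share its direction.

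**Figure D2:**
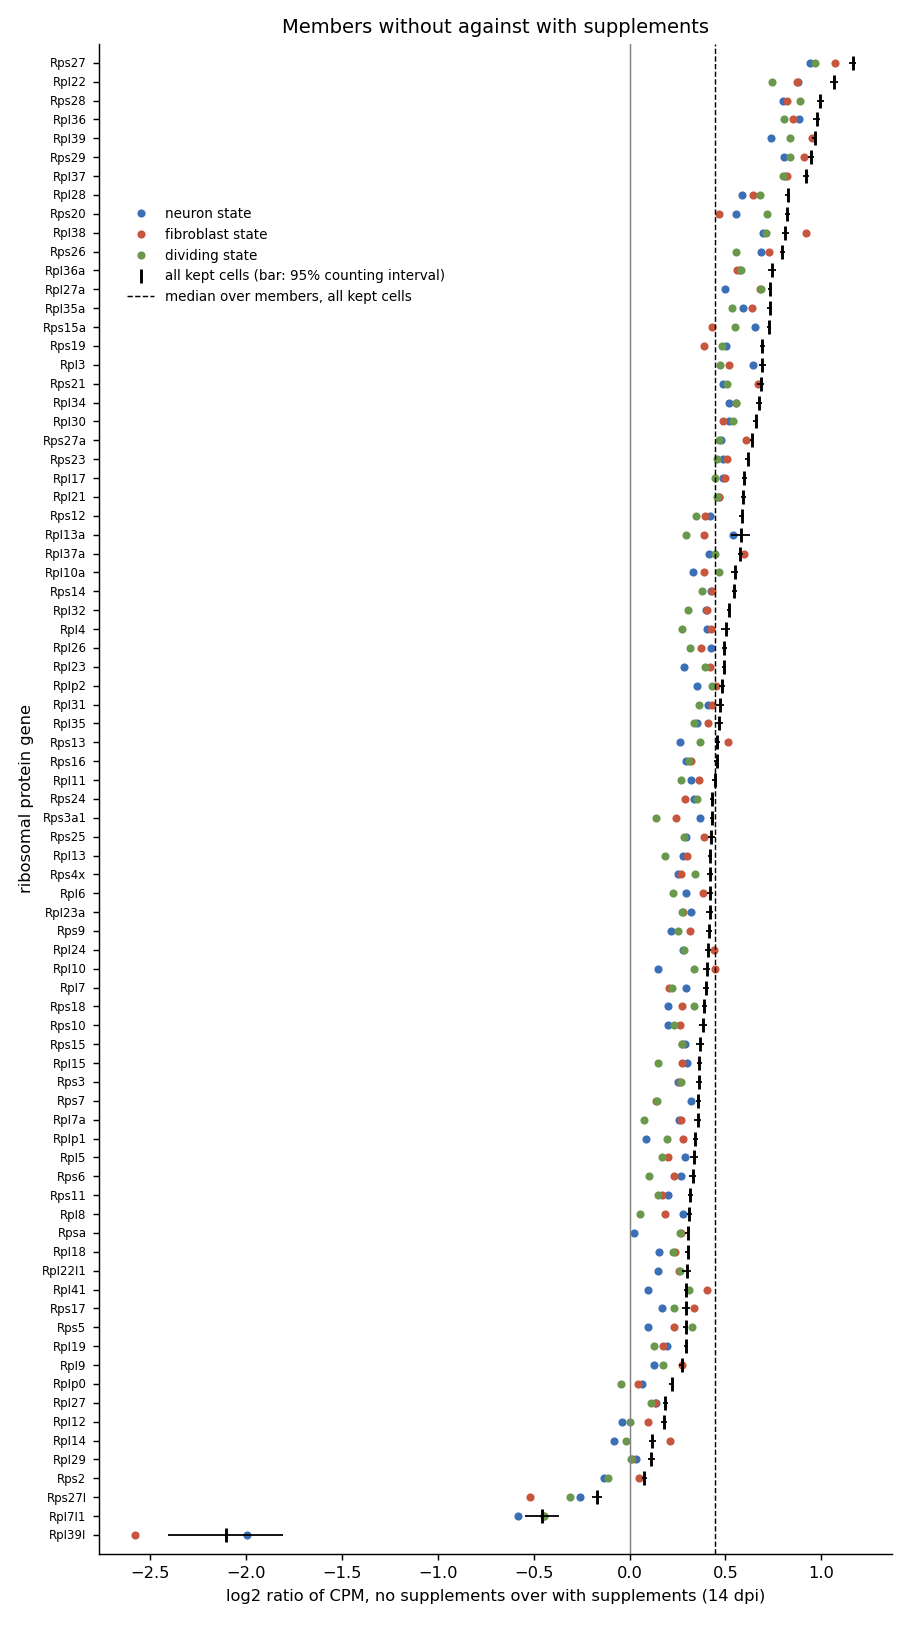
Log2 ratio of CPM without over with supplements at 14 dpi (x axis) for 79 of the 81 tested ribosomal protein genes (y axis, ordered by ratio). Black ticks with bars are all kept cells with the 95% counting interval, colored points are single marker states, and the dashed line is the median over all 81 (0.44); 76 of the genes drawn lie above 0 and Rps27l, Rpl7l1 and Rpl39l below it.

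At the lower end stood 3 paralogs, each of which was lower without than with supplements. Rps27l, a close relative of Rps27 and a known target gene of p53, was at 676 CPM with supplements, 600 CPM without and 1368 CPM at 4 dpi. Its log2 ratio between the 14 dpi libraries was -0.17 (-0.20 to -0.15), and it was -0.26, -0.52 and -0.31 in the neuron, fibroblast and dividing states. Rpl7l1, a relative of Rpl7 that acts in ribosome assembly, was at 57.4, 41.8 and 98.2 CPM, with a log2 ratio of -0.46 (-0.55 to -0.37). Rpl39l, a relative of Rpl39 known from male germ cells, was at 11.3, 2.64 and 36.7 CPM from 417, 121 and 448 UMIs, with a log2 ratio of -2.10 (-2.41 to -1.81). All 3 paralogs were highest at 4 dpi and lowest without supplements, an order that none of their partners Rps27, Rpl7 and Rpl39 had. Among standard members Rps2 and Rpl29 had the lowest ratios, at 0.077 and 0.11.

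As shares of each pair with its partner, the paralogs also differed between libraries. Rps27l made up 44.3% of Rps27l and Rps27 UMIs together in the library with supplements (interval 43.8 to 44.7). The share was 23.9% (23.7 to 24.2) without supplements and 55.1% (54.5 to 55.7) at 4 dpi. In the fibroblast state these shares were 44.4%, 21.0% and 55.3%, so the low share without supplements was present within that state. Rpl39l made up 0.58%, 0.069% and 1.58% of its pair, and Rpl7l1 4.26%, 2.40% and 4.31%. Rpl22l1, the paralog of Rpl22 whose expression Rpl22 protein is known to repress, made up 48.8%, 35.9% and 31.0% of its pair. Rpl22l1 itself was at 686, 844 and 659 CPM, a narrower range than that of Rpl22. Its share was higher in the neuron than the fibroblast state at 14 dpi, 52.4% against 41.8% with supplements and 39.9% against 32.0% without, and was 28.9% against 32.2% at 4 dpi, with overlapping intervals (25.7 to 32.2 and 31.3 to 33.2). Rpl3l, the striated muscle relative of Rpl3, had 3, 2 and 1 UMIs. Rpl10l, the testis relative of Rpl10, had 0 UMIs, which allows up to 3 in each library.

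**Figure D3:**
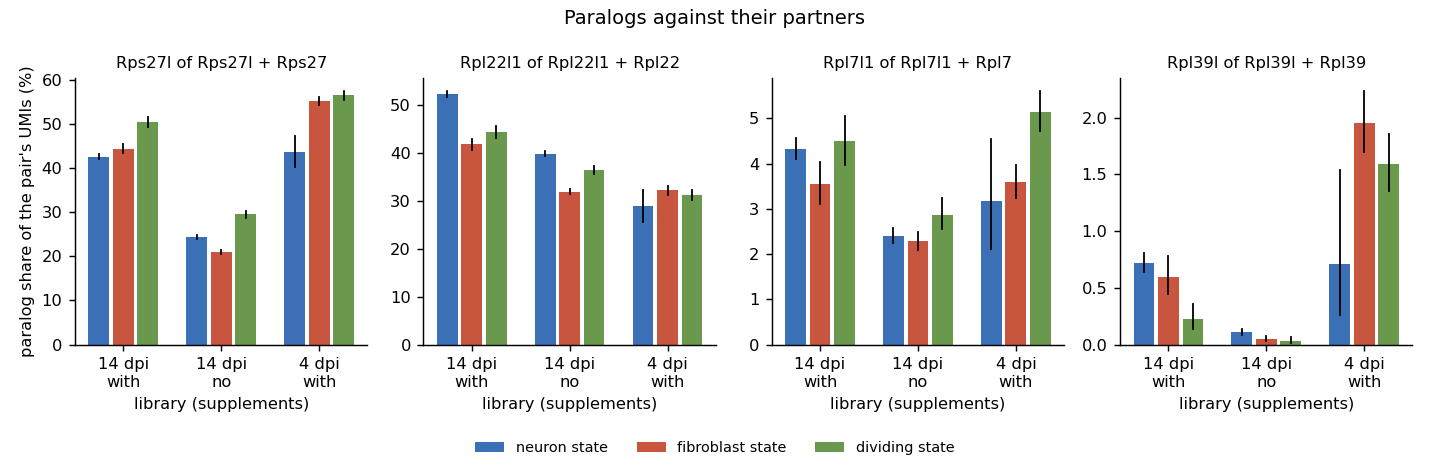
Share of each paralog in the summed UMIs of the paralog and its partner (y axis, percent, each panel with its own scale) by library and marker state (x axis), with 95% counting intervals. Rps27l, Rpl7l1 and Rpl39l have their lowest shares without supplements in each state, whereas Rpl22l1 is highest in the neuron state with supplements (52.4%).

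From 4 to 14 dpi the family was lower with supplements and near its 4 dpi level without them. Both comparisons use the same 4 dpi library. With supplements, 77 of 81 members were lower with an interval below 0 (35.4% of features), 12 of these by 2-fold or more (10.1%), and the median log2 ratio was -0.57 against 0.11 over all features. Without supplements 44 members were lower and 33 higher with an interval that left out 0 (37.0% and 46.1% of features), 6 were at least 2-fold lower (9.64%), and the median was -0.041. That median was 0.23 in the fibroblast state alone and 0.095 in the dividing state alone, 2 alternatives chosen after seeing the data. With supplements the median was -0.11 in the fibroblast state and -0.23 in the dividing state, both closer to 0 than over all cells.

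Some members were lower at 14 dpi in both libraries. Rpl5, which with Rpl11 and 5S rRNA forms a particle that binds the p53 inhibitor Mdm2, was at 1905 CPM at 4 dpi, 738 CPM with supplements and 932 CPM without at 14 dpi. Rps2, at the mRNA entry side of the small subunit, was at 5900 CPM at 4 dpi, 2664 CPM with and 2810 CPM without supplements. Rpl13a was at 414, 136 and 203 CPM in the same order, and since this gene has many processed copies in the genome, reads shared with them make its level uncertain. The log2 ratios were -1.37 and -1.03 for Rpl5, -1.15 and -1.07 for Rps2, and -1.61 and -1.03 for Rpl13a, with and without supplements. Rps12 was at 4722 CPM at 4 dpi, 1869 CPM with and 2807 CPM without supplements. Rack1, a scaffold of the small subunit outside the symbol rule, had the same direction, at 2459 CPM at 4 dpi, 935 CPM with and 1233 CPM without supplements.

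Above 0 with supplements were 4 tested members, all with an interval above 0. Rpl24, a large-subunit protein that bridges the subunits, was at 1063 CPM at 4 dpi, 1350 CPM with and 1794 CPM without supplements, with log2 ratios of 0.34 and 0.76. Rpl37a had log2 ratios of 0.078 and 0.66 and Rpl41 of 0.023 and 0.32, so both were near their 4 dpi level with supplements. Rpl22l1 was likewise close to its 4 dpi level with supplements, at a log2 ratio of 0.058. Rps10 was the closest of the tested members below 0, at 974 CPM at 4 dpi and 951 CPM with supplements, with a log2 ratio of -0.035 (-0.065 to -0.0047).

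In the neuron state every tested member was lower than in the fibroblast state of the same library. This held for 81, 80 and 81 members with supplements, without and at 4 dpi, of which 81, 80 and 77 had an interval below 0 (26.2%, 27.2% and 11.6% of features). The median log2 ratios were -0.65, -0.69 and -0.31, against 0.15, 0.27 and 0.22 over all features. At least 2-fold lower were 6, 10 and 1 members (10.7%, 9.75% and 9.47% of features). The states were cut on markers that left out the members, so these ratios were not fixed by the rule.

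Rps20, a small-subunit protein, was the member that differed most between states at 14 dpi. It was at 1728 CPM in the neuron and 4675 CPM in the fibroblast state with supplements, 2540 and 6458 CPM without, and 4094 and 6300 CPM at 4 dpi. The neuron state was the low one in each library, with log2 ratios of -1.44, -1.35 and -0.62. Rps19, a small-subunit protein known from Diamond-Blackfan anemia, had log2 ratios of -1.21, -1.09 and -0.54. Rps20 was at least 0.25 below the family's median in all 3 libraries, and Rpl22, Rpl28, Rps19, Rps27 and Rps28 were so in both 14 dpi libraries. Rpl22 was at 567 CPM in the neuron and 1245 CPM in the fibroblast state with supplements, and at 1043 and 2281 CPM without, a log2 ratio of -1.13 in both.

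The members closest to equal levels were Rpl27 and Rpl31, which were at least 0.25 above the median in both 14 dpi libraries. Rpl27 was at 1680 and 2014 CPM in the neuron and fibroblast states with supplements, 1851 and 2207 CPM without, and 1942 and 2065 CPM at 4 dpi. Its log2 ratios were -0.26, -0.25 and -0.089, the last with an interval that reached 0.013. Rpl38 was at -0.26 with supplements and -0.48 without. At 4 dpi the lowest ratio among members with over 100 UMIs in the neuron state was that of Rps27l, at -0.98 (-1.15 to -0.83), from 763 CPM in the neuron and 1509 CPM in the fibroblast state. Rpl39l had a lower ratio, -1.85 (-3.31 to -0.70), from 6 UMIs in the neuron state.

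The dividing state was closer to the fibroblast state. Of the 81, 80 and 81 tested members, 62, 74 and 56 were lower with an interval below 0 (20.4%, 21.1% and 21.9% of features), and 65 of the 80 tested in all libraries were lower in all 3. The median log2 ratios were -0.17, -0.21 and -0.090, against 0.075, 0.062 and 0.034 over all features. Rpl7l1 was the exception in all 3 libraries: it was at 71.3 CPM in the fibroblast and 76.3 CPM in the dividing state with supplements, 52.3 and 55.9 CPM without, and 84.4 and 115 CPM at 4 dpi. Its log2 ratio had an interval above 0 at 4 dpi only (0.45, 0.25 to 0.65), and was 0.10 in both 14 dpi libraries with intervals that held 0. Rps20 was lower in dividing cells in each library, at -0.54, -0.29 and -0.25. The dividing state mixed cells with neuron markers (74, 32 and 71 cells) and with fibroblast markers (44, 173 and 686 cells). Dividing cells with fibroblast markers had family shares of 20.3%, 23.4% and 20.6%, against 19.8%, 26.3% and 21.8% in the fibroblast state. With supplements they were thus not lower. The part of this mix in the ratios was not tested.

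**Figure D4:**
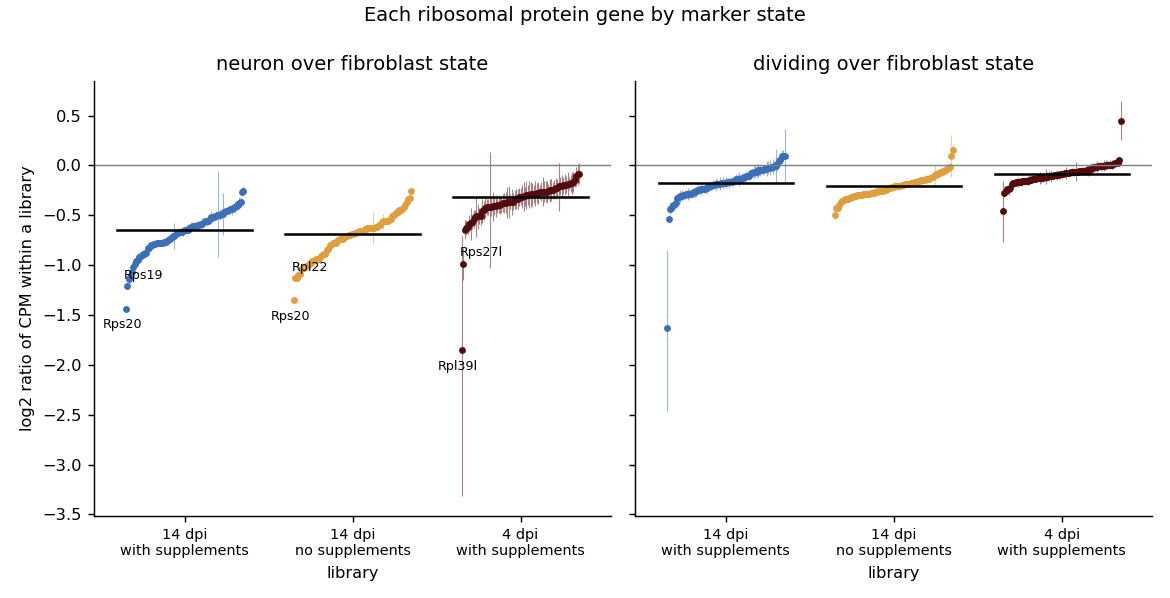
Log2 ratio of CPM of the neuron state (left) and the dividing state (right) over the fibroblast state (y axis) for each tested ribosomal protein gene, by library (x axis). Genes are ordered by ratio, thin lines are 95% counting intervals and black lines the medians (-0.65, -0.69 and -0.31 on the left); no gene lies above 0 on the left.

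The X-linked members Rps4x, Rpl10, Rpl36a and Rpl39 had log2 ratios of 0.42, 0.40, 0.74 and 0.97 without over with supplements, all higher. In the neuron over the fibroblast state they ranged from -0.95 for Rpl36a to -0.66 for Rpl10 with supplements. Among the 5 members of highest summed CPM were Rpl13, Rps24, Rpl23 and Rps27a, with Rps27a made as a fusion with ubiquitin. Their log2 ratios without over with supplements were 0.42, 0.43, 0.49 and 0.64, against the family's median of 0.44. These 5 were picked by captured UMIs, which were not divided by transcript length, and no other order of levels between genes is given.

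Ribosomal proteins outside the symbol rule did not all follow the family. Fau, a ubiquitin-like fusion that yields a small-subunit protein, was at 2456 CPM with supplements, 3841 CPM without and 2896 CPM at 4 dpi, highest without supplements. Rpl36al, a retained copy of Rpl36a, was at 527, 521 and 316 CPM, and at 515 and 487 CPM in the neuron and fibroblast states with supplements. Its partner Rpl36a was at 677 and 1306 CPM in those states.

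Genes that build ribosomes moved opposite to the ribosomal proteins in some comparisons and with them in others. Of 25 biogenesis genes, which include rRNA processing factors and subunits of RNA polymerase I, 23 were tested without over with supplements; 21 were lower (52.6% of features), none passed 2-fold in either direction (5.18% and 4.79% of features), and the median log2 ratio was -0.38, beside -0.031 over all features. In dividing over fibroblast-state cells the list was higher while the members were lower: 22 of 24, 16 of 23 and 23 of 23 were higher with supplements, without and at 4 dpi, where 55.7%, 56.0% and 53.2% of features were. The medians were 0.37, 0.14 and 0.50, beside 0.075, 0.062 and 0.034 over all features. Ncl, the nucleolar protein nucleolin, was at 498 and 805 CPM in the fibroblast and dividing states with supplements, 403 and 554 CPM without, and 702 and 1170 CPM at 4 dpi. In neuron over fibroblast-state cells the list was lower like the members, with medians of -0.33, -0.24 and -0.14 beside 0.15, 0.27 and 0.22 over all features. From 4 to 14 dpi with supplements 19 of 23 were lower (43.9% of features), with a median of -0.49 beside the members' -0.57. Without supplements 21 of 23 were lower over the same interval of time (45.5% of features), with a median of -0.78 beside the members' -0.041.

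Translation factors lay between. Of 22, 15 were higher (47.4% of features) and 7 lower (52.6%) without over with supplements, with a median of 0.16 beside -0.031 over all features. At least 2-fold higher were 2 (5.18% of features), the initiation factor Eif4b and the neuronal and muscle elongation factor Eef1a2. Eef1a1, the elongation factor of most cells, was at 3288 CPM with supplements, 5162 CPM without and 5440 CPM at 4 dpi. Eef1a2 was at 4.57 and 12.0 CPM at 14 dpi and had 0 UMIs at 4 dpi. Tpt1, whose mRNA also carries a TOP element, had a log2 ratio of 0.44, equal to the members' median. The Myc family, transcription factors that drive ribosome genes, and their Mxd antagonists had 2 of 5 higher (47.4% of features) and a median of -0.11.

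**Figure D5:**
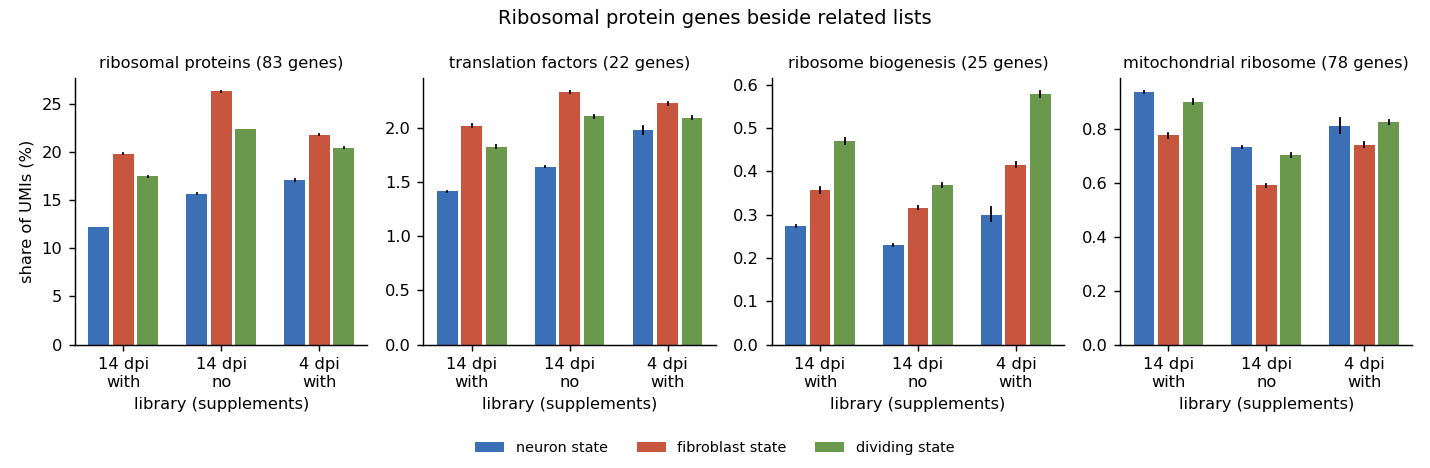
Share of UMIs (y axis, percent, each panel with its own scale) in the ribosomal protein genes, translation factors, ribosome biogenesis genes and mitochondrial ribosome genes, by library and marker state (x axis), with 95% counting intervals. The ribosomal proteins are highest in the fibroblast state of each library, the biogenesis genes in the dividing state.

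Over the 9 combinations of library and state, the genes whose CPM was most like the family's summed CPM, among 867 genes at 100 CPM or more, were Rrbp1, P4hb, Ckap4, Ssr3 and Col1a2. Their Pearson correlations were 0.971, 0.964, 0.963, 0.962 and 0.951, given as a description because the points share 3 libraries and the state rule, and Col1a2 is itself a marker used in that rule. Rrbp1, Ckap4 and Ssr3 encode proteins of the rough endoplasmic reticulum membrane and P4hb a protein folding enzyme of its lumen.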

How the data were processed

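Single-cell counts of 3 libraries were analysed. The authors' deposited matrices give, for each barcode, the UMI counts of every gene. The software was Cell Ranger 6.1.1, per the file headers, and the build GRCm39, per the submitters' processing notes. Libraries used the 10x 3′ v3.1 chemistry, per the labels' protocols. Cell calling and the treatment of intronic reads are not given in the sources used here. Features with the same symbol were summed. Cells with at least 500 genes and at most 20% mitochondrial UMIs were kept, with kept totals of 36782509, 45855979 and 12202809 UMIs. No doublet caller was run; the 5% of cells of highest depth were left out as an alternative.

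States were called after thinning UMIs outside the members and the 13 mitochondrial genes to 1000 per cell (41, 28 and 554 shallower cells were left unclassed): dividing with at least 3 dividing-marker UMIs, otherwise neuron or fibroblast with at least 5 UMIs of its markers and at least 2 times those of the other. These cuts were set after the data were seen. Ratios are of summed CPM, for features at 10 CPM or more on either side; called means at least 2-fold, and departing means 0.5 (log2) from the members' median. Intervals are exact binomial, and the count floor is 3. The calculations were tested on simulated data with known ratios. Python 3.11, numpy 2.4.6, scipy 1.17.1, pandas 2.3.3 and matplotlib 3.10.9 were used. Named genes were, for each comparison, the 5 members highest and the 5 lowest against the median, the 5 members of highest CPM, paralogs with partners, X-linked members and genes of the related lists; not every gene so ranked is printed, and some members are named only for a sequence or a length feature. The values of some genes are not reported here. The members and lists were chosen with earlier results of these data known. Alternatives changed the cells kept, the denominator, thinning, state cuts, markers, the low-count filter and the centring. Start sequences come from RefSeq (GRCm38.p6) and transcript lengths from GENCODE, matched by name. Of the ribosomal protein pseudogene names, 8 were left out; they summed to 0.109%, 0.102% and 0.092% of the members' UMIs, and reads shared with near-identical copies that the annotation may not separate remain uncertain.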

Additional observations from a re-analysis of the deposited data

Results flagged for a closer look

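Each result here had opposite directions in different libraries or states, with counting intervals on opposite sides of 0; the difference was not tested, the values come from 1 library each, and all are under 0.25 on the log2 scale. In dividing over fibroblast-state cells, Rpl14 was at 0.096 with supplements and -0.13 without. Rpl8, of the large subunit, was at 0.052 with supplements, -0.079 without and 0.052 at 4 dpi. Rps2 was at -0.18 without supplements and 0.027 at 4 dpi, and the paralog Rps27l at 0.16 without supplements and -0.17 at 4 dpi. Without over with supplements, Rpl12 was at -0.037 in the neuron and 0.094 in the fibroblast state, and Rpl14 at -0.083 and 0.21. The stalk protein Rplp0 was at 0.065 in the neuron, 0.046 in the fibroblast and -0.047 in the dividing state, and Rps2 was at -0.13, 0.050 and -0.11. Rpl12 was named after its values were seen.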

How the results depend on the processing

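No paired analysis was possible because each group holds 1 library. With 1 library per group nothing shows how far another culture would differ, the 4 dpi cells have few UMIs (only 185 are in its neuron state), and the cause of each shift below was not tested. Of 4348 values of single members under the alternatives, 4206 kept their direction, as did 273 of 273 values of members that were at least 2-fold different. Part of these could not change. The 100 CPM filter (33 values at least 2-fold different and 679 others) and no low-count filter (21 and 222) only choose which members count and leave each ratio as it was.

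Library shares (13.8%, 19.7% and 20.8%) were 13.7%, 19.6% and 20.8% with all deposited barcodes; 14.2% and 19.8% with at most 10% mitochondrial UMIs (both 14 dpi libraries only); 14.7%, 20.7% and 21.6% over UMIs not mitochondrially encoded. They were 13.9%, 20.1% and 20.8% as a mean over cells; 14.0%, 20.2% and 20.8% thinned to 1000 UMIs; 13.8%, 19.8% and 20.8% without the 5% deepest cells; 12.1%, 17.2% and 18.2% without the 5 members of highest count. The neuron state minus the fibroblast state (-7.61, -10.6 and -4.70 percentage points) was -7.75, -10.7 and -4.87 over UMIs not mitochondrially encoded, -7.69, -10.9 and -4.56 as a mean over cells, -7.77 and -4.58 (with supplements and at 4 dpi) without the 5% deepest cells. It was -8.26, -10.8 and -4.45 with states thinned to 500 UMIs, -8.65 and -11.4 (with supplements and without) with doubled state cuts, -8.48, -10.8 and -4.99 without the top marker of each list. The dividing state minus the fibroblast state (-2.38, -3.90 and -1.37 points) was -2.54, -4.09 and -1.51 over UMIs not mitochondrially encoded, -2.13, -4.56 and -1.65 as a mean over cells, -2.24 and -1.68 (with supplements and at 4 dpi) without the 5% deepest cells. It was -3.45, -3.85 and -1.86 with states thinned to 500 UMIs, -3.91, -4.16 and -2.06 with doubled state cuts, -3.19 and -1.47 (with supplements and at 4 dpi) without the top marker of each list. 

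The fibroblast-state and dividing-state alternatives below were chosen after seeing the data. Without over with supplements, the median (0.44) was 0.48 thinned to 1000 UMIs, 0.53 as CPM over other UMIs, 0.48 relative to the median of all features, 0.32 in the neuron state, 0.46 outside the dividing state, 0.39 in the fibroblast state and 0.32 in the dividing state. Members lower (3) numbered 6 in the neuron state, 5 in the dividing state and 1 at 100 CPM or more. Members at least 2-fold higher (2) numbered 7 as CPM over other UMIs, 4 relative to the median of all features, 0 in the neuron state, 1 in the fibroblast state and 0 in the dividing state. Members at least 2-fold lower (1) numbered 0 thinned to 1000 UMIs, 0 in the dividing state and 0 at 100 CPM or more. Members departing upward (6) numbered 3 in the neuron state and 2 centred on the members' summed UMIs. With supplements over 4 dpi, the median (-0.57) was -0.53 thinned to 1000 UMIs, -0.65 as CPM over other UMIs, -0.68 relative to the median of all features, -0.45 in the neuron state, -0.60 outside the dividing state, -0.11 in the fibroblast state and -0.23 in the dividing state. Members higher (4) numbered 1 as CPM over other UMIs, 1 relative to the median of all features, 26 in the fibroblast state and 10 in the dividing state. Members at least 2-fold lower (12) numbered 3 in the fibroblast state and 3 in the dividing state. Members departing upward (5) numbered 3 in the neuron state. Without supplements over 4 dpi, the median (-0.041) was -0.011 thinned to 1000 UMIs, -0.13 relative to the median of all features, -0.095 in the neuron state, -0.095 outside the dividing state, 0.23 in the fibroblast state, 0.095 in the dividing state and -0.064 with no low-count filter. Members higher (33) numbered 58 in the fibroblast state and 51 in the dividing state. Members lower (48) numbered 23 in the fibroblast state and 30 in the dividing state. Members at least 2-fold higher (0) numbered 5 in the fibroblast state. Members at least 2-fold lower (6) numbered 1 in the fibroblast state and 2 in the dividing state. Neuron over fibroblast state, with supplements: the median (-0.65) was -0.80 relative to the median of all features, -0.73 with doubled state cuts and -0.73 without the top marker, and members at least 2-fold lower (6) numbered 15 relative to the median of all features, 12 with doubled state cuts and 11 without the top marker. Neuron over fibroblast state, without: the median (-0.69) was -0.96 relative to the median of all features, -0.75 with doubled state cuts and -0.71 without the top marker, and members at least 2-fold lower (10) numbered 34 relative to the median of all features and 16 with doubled state cuts. Neuron over fibroblast state, at 4 dpi: the median (-0.31) was -0.53 relative to the median of all features, and members at least 2-fold lower (1) numbered 2 relative to the median of all features, 0 at 100 CPM or more, 2 with doubled state cuts and 2 without the top marker. Dividing over fibroblast state, with supplements: the median (-0.17) was -0.25 relative to the median of all features and -0.28 with doubled state cuts, and members at least 2-fold lower (1) numbered 0 at 100 CPM or more, 0 with doubled state cuts and 0 without the top marker. Dividing over fibroblast state, without: the median (-0.21) was -0.27 relative to the median of all features. Dividing over fibroblast state, at 4 dpi: the median (-0.09) was -0.12 relative to the median of all features and -0.13 with doubled state cuts. As CPM over other UMIs the list medians without over with supplements were 0.49 for ribosomal proteins outside the symbol rule, -0.29 for ribosome biogenesis, 0.25 for translation factors, -0.31 for mitochondrial ribosome and 0.73 for snoRNA hosts. With no low-count filter the median was 0.65 for snoRNA hosts.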

Other observations

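The mitochondrial ribosome, whose proteins are encoded by a separate set of nuclear genes, had the opposite direction to the cytosolic one between the 14 dpi libraries. Of 77 tested genes, 70 were lower (52.6% of all features) and 7 higher without than with supplements, 4 of them at least 2-fold lower (4.79% of all features), and the median log2 ratio was -0.40. Mrps6 was at 407 CPM with supplements, 196 CPM without and 596 CPM at 4 dpi, and Mrpl20 at 501, 224 and 285 CPM. In neuron over fibroblast-state cells 64 of 77, 65 of 76 and 56 of 77 genes were higher, where 59.2%, 64.3% and 62.3% of all features were. The medians were 0.28, 0.34 and 0.14 beside 0.15, 0.27 and 0.22 over all features, so at 4 dpi the list's median was the lower one.

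Host transcripts of small nucleolar RNAs, some of which also begin with a TOP element, had the members' direction between the 14 dpi libraries but not from 4 to 14 dpi with supplements. Gas5 was at 784 CPM with supplements, 1347 CPM without and 628 CPM at 4 dpi, and Snhg8 at 125, 248 and 100.0 CPM. Of the 4 hosts, 3 were higher without than with supplements (47.4% of all features), with a median of 0.65. From 4 to 14 dpi with supplements all 4 were higher (56.1% of all features), with a median of 0.38, while the members had a median of -0.57.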
